A study of Mus musculus with 6 samples.

Results

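The 44 genes described here form the G2/M and mitotic spindle programme, the genes that a dividing cell switches on to enter mitosis, build a spindle, separate its chromosomes and split. They were taken as a named list covering cyclins and CDK1, the spindle checkpoint, kinesins, centromere and kinetochore, spindle assembly, cytokinesis and chromosome proteins. The list was chosen with earlier results of these data known, which limits what its counts can show. For each gene, the brightest probe set annotated to that gene alone, by its mean log2 signal across the 6 arrays, was read. No difference between groups entered this choice of probe set. A value was obtained for 43 of the 44 genes, out of 18193 genes measured. Expression of cyclin B1 (Ccnb1) was not analysed here.

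Expression was measured on Affymetrix mouse arrays, 1 array per tongue, in total RNA from tongues of C57BL/6J mice, an inbred strain. The age of the mice is not given for the array experiment. The 3 control mice were untreated. The other 3 mice drank 4-nitroquinoline 1-oxide (4NQO), a carcinogen that damages DNA, for 8 weeks at 100 μg/ml. Each tongue came from an individual mouse, and the whole tissue was used, so that epithelium, muscle, connective tissue, vessels, immune cells and glands are averaged. The comparison asks how expression in the tongue differs after 8 weeks of 4NQO.

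In a dividing cell, CDK1 bound to cyclins A and B drives entry into mitosis, the spindle checkpoint holds anaphase until every kinetochore is attached, and the anaphase-promoting complex (APC/C) then marks securin and the cyclins for destruction. Most of the genes that encode these proteins are silent in resting cells and are transcribed together late in the cell cycle. In squamous epithelium of the tongue, dividing cells lie in the basal layers, whereas adult skeletal muscle fibres do not divide. In an average over the whole tongue, fewer cells of a type and less RNA per cell cannot be told apart.

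The late transcription of these genes is known to run through a short promoter element, the cell cycle genes homology region (CHR), and through CCAAT boxes, to which the factor NF-Y binds. RefSeq promoter windows on GRCm38.p6, from 250 bases before to 50 after a transcription start, were found for 36 of the 44 genes (38 windows). The windows were searched on both strands for the CHR letters TTTGAA or TTCGAA, whose reverse complements are TTCAAA and TTCGAA, and for CCAAT, whose reverse complement is ATTGG. A CHR and a CCAAT match can share at most 1 base, at their ends. CHR letters stood in 28 of the 38 windows (73.7%), against 17.6% of 21263 windows of protein-coding genes. Within 50 bases of the start, a range chosen after the positions were seen, they stood in 26 windows (68.4%) against 4.35%. CCAAT stood in 29 windows (76.3%) against 38.2%, and both motifs in 25 windows (65.8%) against 7.11%. For 16 windows of DNA replication genes the shares were 18.8% for CHR letters and 75% for CCAAT. A match describes letters and is not a shown binding site.

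The 5 genes below are those with the smallest p from limma, the test used for 4NQO against control, among members that hold CHR letters in the stretch from 170 bases before to 30 after the start. They are printed 5′ to 3′ on the gene's own strand to show how closely the letters sit to the start, with CHR letters and CCAAT boxes in capitals. The stretches lie at chr2:164769759-164769958 (plus strand) for Ube2c, chr2:69206184-69206383 (minus strand) for Spc25, chr2:127831830-127832029 (minus strand) for Bub1, chr9:83834519-83834718 (plus strand) for Ttk and chr10:69352883-69353082 (minus strand) for Cdk1.
Ube2c: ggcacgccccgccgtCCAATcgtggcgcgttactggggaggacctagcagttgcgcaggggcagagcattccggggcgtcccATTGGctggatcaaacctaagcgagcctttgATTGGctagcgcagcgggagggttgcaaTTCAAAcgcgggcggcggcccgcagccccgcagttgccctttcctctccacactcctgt
Spc25: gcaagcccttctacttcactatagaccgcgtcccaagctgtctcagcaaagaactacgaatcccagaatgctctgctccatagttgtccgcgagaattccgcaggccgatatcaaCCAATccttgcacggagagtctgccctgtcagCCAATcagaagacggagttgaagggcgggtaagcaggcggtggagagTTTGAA
Bub1: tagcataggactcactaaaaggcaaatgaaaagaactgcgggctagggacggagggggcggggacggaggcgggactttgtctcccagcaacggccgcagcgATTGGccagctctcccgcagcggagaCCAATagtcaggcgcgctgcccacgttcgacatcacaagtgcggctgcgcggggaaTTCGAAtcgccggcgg
Ttk: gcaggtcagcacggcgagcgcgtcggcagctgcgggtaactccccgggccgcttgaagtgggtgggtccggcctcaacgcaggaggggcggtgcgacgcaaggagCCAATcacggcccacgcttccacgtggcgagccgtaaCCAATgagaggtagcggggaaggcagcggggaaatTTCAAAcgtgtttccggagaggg
Cdk1: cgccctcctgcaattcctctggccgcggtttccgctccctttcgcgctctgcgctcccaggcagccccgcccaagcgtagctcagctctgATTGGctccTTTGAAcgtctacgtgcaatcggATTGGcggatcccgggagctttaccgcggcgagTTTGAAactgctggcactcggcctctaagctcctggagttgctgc
In Ube2c the CHR letters began 29 bases before the start, in Ttk 8 bases after it, in Bub1 15 after and in Spc25 25 after. Cdk1 held them at 71 and at 15 bases before the start. Every one of the 5 stretches also held at least 2 CCAAT boxes. The windows of Mad2l1, Birc5, Melk, Cks2, Nuf2, Nusap1, Nek2, Cenpe, Pttg1 and Ccnb1 did not hold the CHR letters, and no window was found for the 8 other genes.

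**Figure D1:**
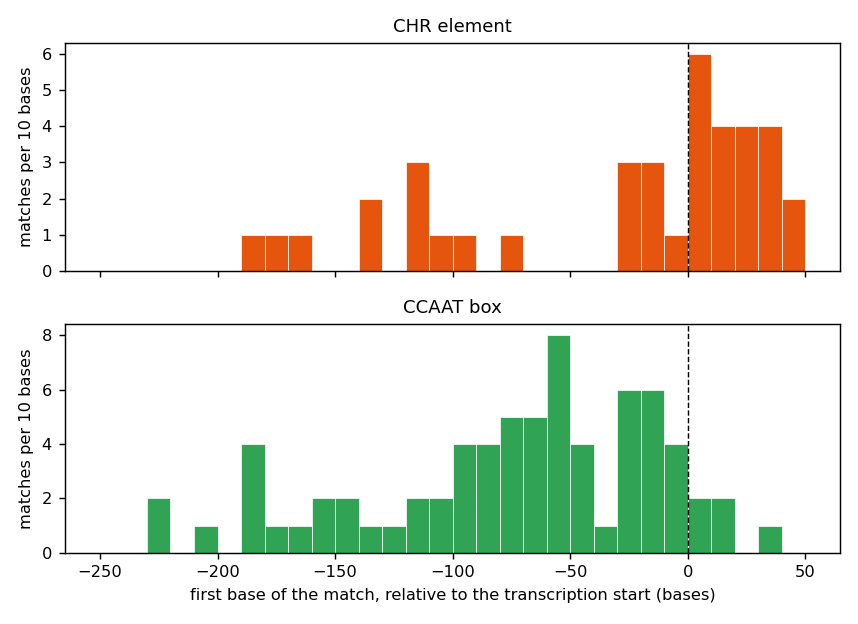
Positions of CHR letters (upper panel) and CCAAT boxes (lower panel) in 38 RefSeq promoter windows of 36 G2/M and mitotic genes, as matches per 10 bases against the distance of the first base of the match from the transcription start. Of 38 CHR matches, 27 began within 50 bases of the start, while CCAAT boxes were spread further before it.

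As a whole, the mitotic genes had higher signals in 4NQO-treated tongue, but none passed the adjusted threshold. The median log2 fold change of the 43 genes was 0.92 (1.89-fold), against -0.014 over all genes, and 42 of the 43 were above 0. By limma with Benjamini-Hochberg adjustment over all genes, 0 of 43 had an adjusted p under 0.05, a threshold that 0.126% of all genes passed upward. At an unadjusted p under 0.05, 39 were higher and 0 were lower, against 6.68% and 3.74% of all genes. In 32 genes all 3 4NQO tongues lay above all 3 control tongues and in 0 all lay below, against 9.59% and 7.18% of all genes. A log2 fold change of 1 or more was measured in 19 genes, against 1.18% of all genes, in 21 it lay from 0.5 up to 1, and in Foxm1, Kif23 and Pttg1 it was lower. Adjusted p-values under 0.1 were found for Mad2l1 and Ccna2, where 0.61% of all genes had such a value. A significance analysis of microarrays (SAM), the method of the study, was run anew here. It called 1 of the 43 genes, Mad2l1, and 0.456% of all genes. The list that the study reports from its own SAM is shorter, so these calls are not the study's. With 3 tongues per group, the smallest two-sided p that a permutation test allows is 0.1.

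**Figure D2:**
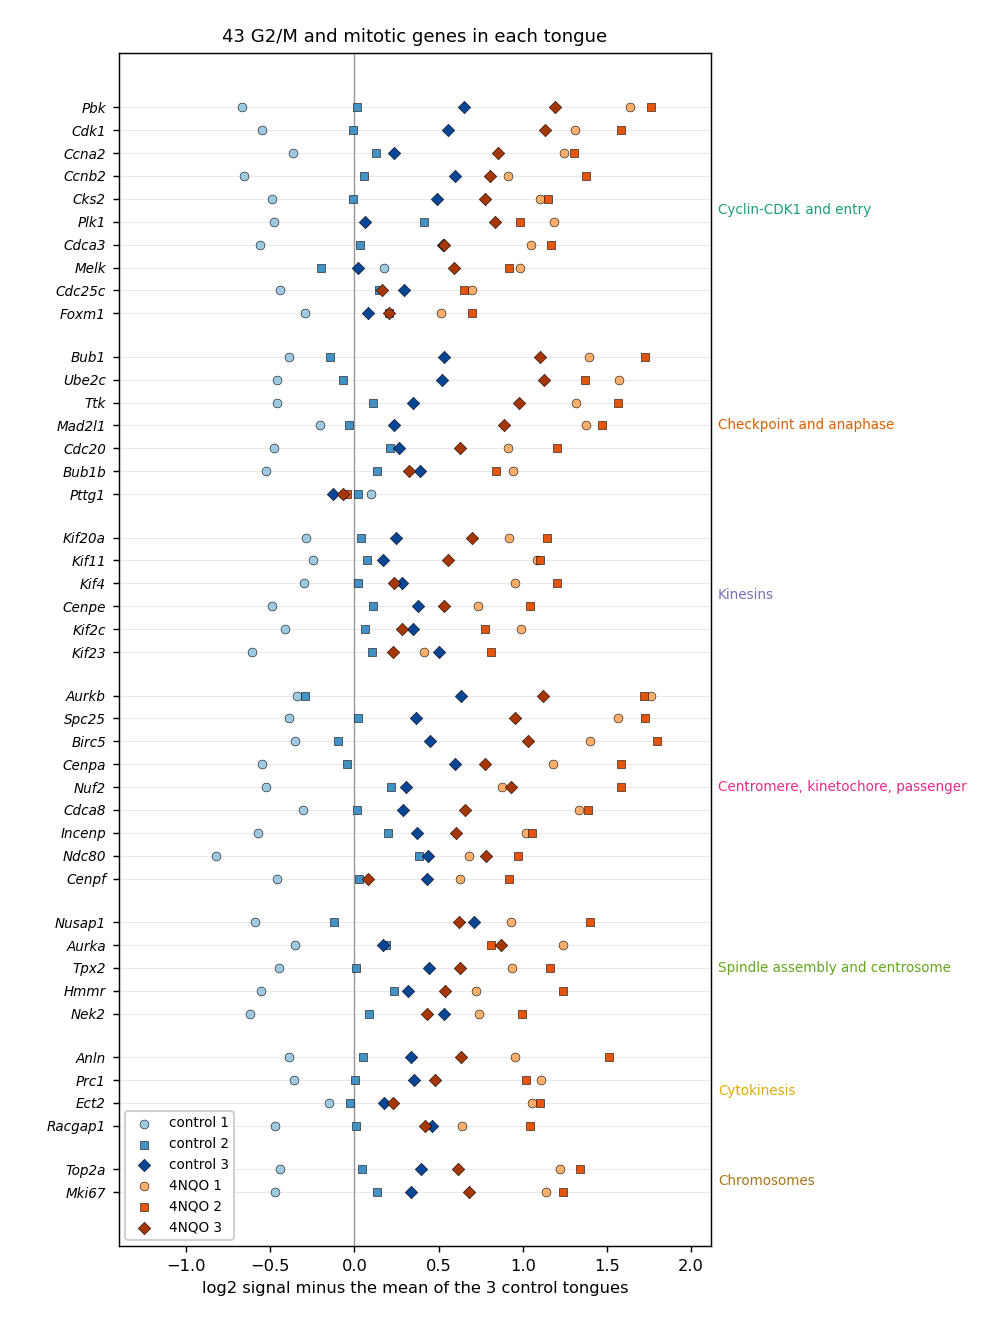
Log2 signal of 43 G2/M and mitotic genes in each of 3 control (blue) and 3 4NQO (orange) tongues, as the difference from the gene's control mean, grouped by role, 1 point per tongue. In 32 genes every 4NQO tongue lies to the right of every control tongue. Control 1 is the lowest control in 41 genes and 4NQO 3 the lowest 4NQO tongue in 39.

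The arrays were alike in overall level, with median log2 signals of 4.57 to 4.60 in control and 4.45 to 4.55 in 4NQO. Over all genes 24 (0.132%) passed the adjusted threshold of limma in either direction, and this number was 0 without control 2, 1 without 4NQO 2 and 10 without 4NQO 1. The Gapdh control probe sets, which read the 3′ and the 5′ end of 1 transcript, differed by 1.67 on the log2 scale in control 3 and by 1.07 in 4NQO 2, against 0.086, 0.202, 0.469 and 0.325 in control 1, control 2, 4NQO 1 and 4NQO 3. A wide gap between the ends is commonly read as shortened RNA or incomplete copying. Of the markers of skeletal muscle (8 of 8 measured) and of basal and suprabasal keratinocytes (7 of 7 each), 0 lay below the array median on all arrays.

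For genes that drive entry into mitosis, the log2 fold change had a median of 1.01 over 10 measured genes, and in 8 of them the groups did not overlap. Cdk1, the main mitotic kinase, had log2 signals of 7.60, 8.13 and 8.70 in control 1, 2 and 3 and of 9.45, 9.72 and 9.27 in 4NQO 1, 2 and 3. The lowest 4NQO tongue stood above the highest control. The log2 fold change was 1.34 ± 0.27 (SE, n = 3 per group, 2.53-fold, adjusted p = 0.135 from limma). Ccna2, which encodes cyclin A2, a partner of CDK2 and CDK1, read 7.71, 8.20 and 8.31 in control and 9.32, 9.38 and 8.93 in 4NQO tongues. Its groups were separated by a gap of 0.61 and its log2 fold change was 1.14 ± 0.20 (SE, adjusted p = 0.0928 from limma). Pbk, a kinase of mitotic cells, had log2 signals of 6.56, 7.25 and 7.88 in control and 8.87, 8.99 and 8.42 in 4NQO tongues, a log2 fold change of 1.53 ± 0.32 (SE). Control 1 was the lowest tongue of all 6 for each of these 3 genes.

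Among the other entry genes, Ccnb2 (cyclin B2), Cks2 (a small subunit that binds CDK1) and Plk1 (polo-like kinase, needed for spindle poles and mitotic entry) had log2 fold changes of 1.03, 1.01 and 1.00 with no overlap. Cdca3, which helps to remove the CDK1 inhibitor WEE1, and the kinase Melk had 0.92 and 0.83. The groups of Cdca3 were apart by only 0.0066, with control 3 at 7.43 and 4NQO 3 at 7.44. In Melk control 1 was not the lowest but the highest control, at 5.74 against 5.37 and 5.59. Foxm1, a transcription factor of G2/M genes, had a log2 fold change of 0.47 with a 95% interval from 0.0059 to 0.94, and Cdc25c, the phosphatase that activates CDK1, of 0.51 with an interval from -0.057 to 1.07. In both genes 4NQO 3 lay within the control range.

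Over 7 spindle checkpoint and anaphase genes the median log2 fold change was 1.24, and in 5 the groups were apart. Mad2l1, the checkpoint protein that holds CDC20 inactive, had log2 signals of 6.25, 6.42 and 6.69 in control and 7.83, 7.93 and 7.34 in 4NQO tongues. Its log2 fold change of 1.24 ± 0.20 (SE, 2.37-fold) had the smallest adjusted p of the mitotic genes, 0.0703 from limma. Bub1, a checkpoint kinase at the kinetochore, read 4.49, 4.73 and 5.41 in control and 6.27, 6.60 and 5.98 in 4NQO tongues, a log2 fold change of 1.41 ± 0.27 (SE, adjusted p = 0.115 from limma). Ttk, the MPS1 kinase that starts checkpoint signalling, had a log2 fold change of 1.29. All 3 had their lowest value in control 1 and, among 4NQO tongues, in 4NQO 3. The second, dimmer probe sets of Bub1 and Ttk had 0.12 and -0.071 with overlap. Bub1b, which encodes the checkpoint protein BUBR1, had a log2 fold change of 0.70, and 4NQO 3 at 6.68 lay just below control 3 at 6.74. Of its other probe sets, 1 had 0.98 and no overlap, and 1 had 0.33 with overlap.

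Of the genes that trigger anaphase, Ube2c, the ubiquitin-conjugating enzyme of the APC/C, had log2 signals of 7.33, 7.73 and 8.31 in control and 9.36, 9.16 and 8.92 in 4NQO tongues. The gap between the groups was 0.61 and the log2 fold change 1.36 ± 0.25 (SE, 2.56-fold, adjusted p = 0.103 from limma). Cdc20, the APC/C activator, had a log2 fold change of 0.92 without overlap, and its 2 dimmer probe sets had 1.20 and 0.92. Pttg1, which encodes securin, the inhibitor of separase, was the exception. Its values were 12.39, 12.32 and 12.17 in control and 12.23, 12.25 and 12.23 in 4NQO tongues, with a log2 fold change of -0.059 and a 95% interval from -0.29 to 0.17. Its other probe sets had -0.0092 and -0.077. Centring each array on its median gave 0.016 for Pttg1, so its sign depends on the scaling.

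**Figure D3:**
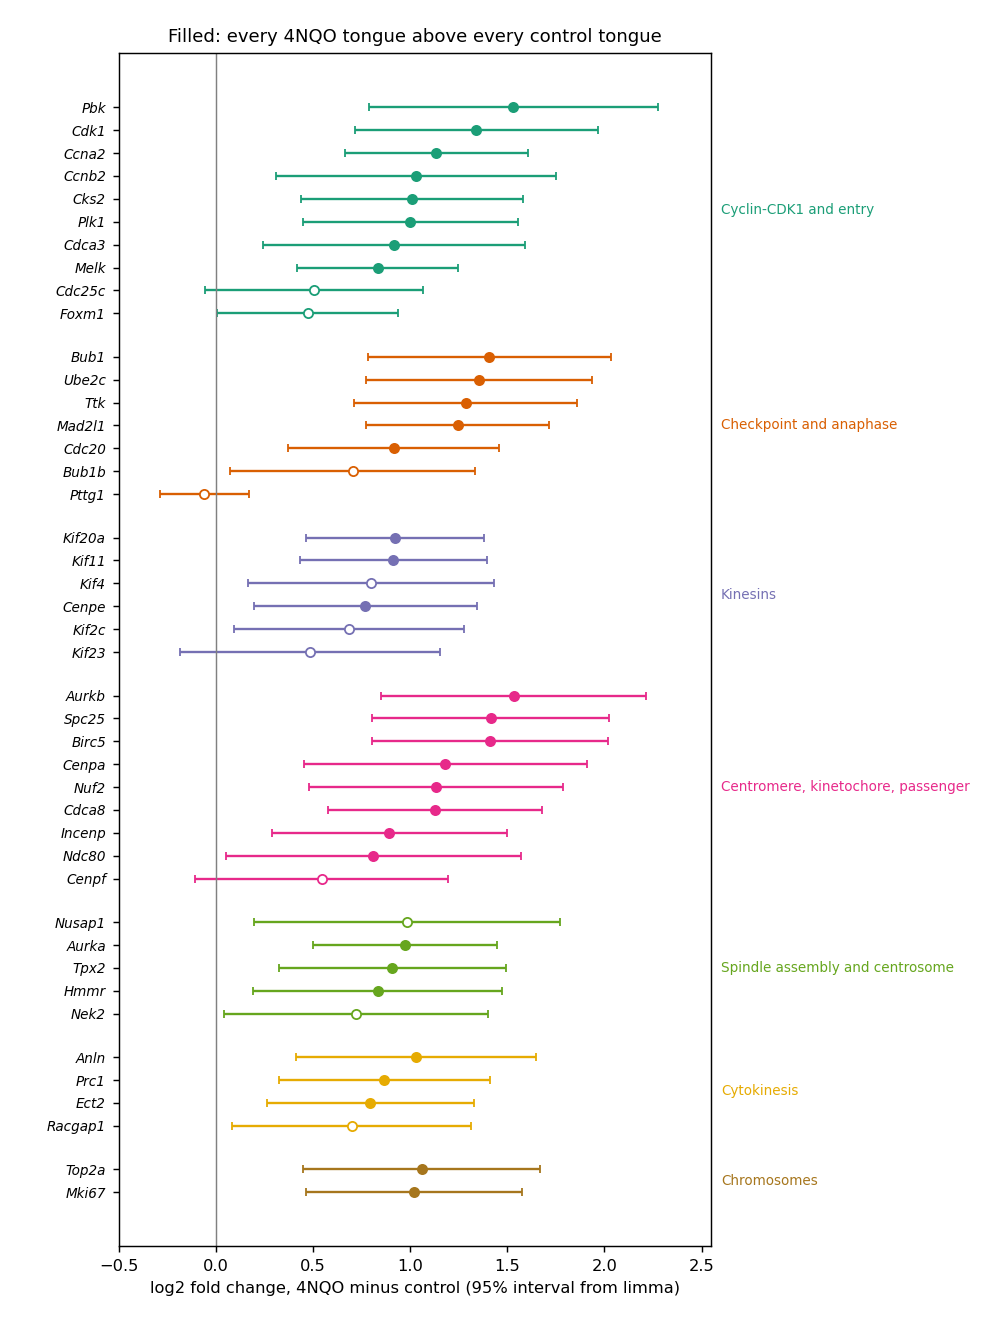
Log2 fold change (4NQO minus control) of 43 G2/M and mitotic genes with the 95% interval from limma, n = 3 tongues per group, grouped by role. Filled points are the 32 genes whose groups do not overlap. The interval reaches below 0 in 4 genes, Cdc25c, Kif23, Cenpf and Pttg1.

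Over 9 centromere, kinetochore and chromosomal passenger genes the median was 1.13, and in 8 the groups were apart. All 4 subunits of the chromosomal passenger complex, which corrects faulty attachments and later guides cytokinesis, were among those whose measured values did not overlap. Aurkb, its kinase, had log2 signals of 2.89, 2.93 and 3.86 in control and 4.99, 4.95 and 4.35 in 4NQO tongues, a measured log2 difference of 1.53 (adjusted p = 0.115 from limma). Every control value of Aurkb was dimmer than the median of its array, and whether such signals exceed background was not tested. A second, dimmer probe set of Aurkb had 0.50 without overlap. The true size of the Aurkb difference therefore stays uncertain, and a linear fold is omitted. Without Aurkb the median of the other 8 genes was also 1.13. Birc5 (survivin) read 6.37, 6.63 and 7.18 in control and 8.13, 8.53 and 7.76 in 4NQO tongues, a log2 fold change of 1.41 ± 0.26 (SE, 2.66-fold, adjusted p = 0.104 from limma). Cdca8 (borealin) and the scaffold Incenp had 1.13 and 0.89. The 3 probe sets of Cdca8 gave 0.97 to 1.21 and none overlapped.

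The NDC80 complex couples kinetochores to microtubules, and 3 of its subunits are members. Spc25 had log2 signals of 5.65, 6.07 and 6.41 in control and 7.61, 7.77 and 6.997 in 4NQO tongues, a log2 fold change of 1.41 ± 0.26 (SE, adjusted p = 0.104 from limma). A second, dimmer probe set of Spc25 had 0.10 with overlap. Nuf2 had a log2 fold change of 1.13 and Ndc80 of 0.81, each without overlap. In Ndc80 control 1 stood far below, at 4.23 against 5.43 and 5.49, and the 95% interval ran from 0.052 to 1.57. The centromeric histone variant gene Cenpa had a log2 fold change of 1.18, while its dimmer probe sets had 0.15 and 0.35 with overlap. Cenpf, a large kinetochore protein, had 0.54 with an interval from -0.11 to 1.20, and its 2 other probe sets had -0.29 and -0.078.

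The 6 kinesins, motors that move along spindle microtubules, had a median of 0.78 on the log2 scale, and in 3 of them the groups did not overlap. Kif20a, needed for cytokinesis, read 5.47, 5.80 and 6.00 in control and 6.68, 6.90 and 6.45 in 4NQO tongues, and Kif11, which pushes spindle poles apart, read 4.95, 5.27 and 5.36 against 6.27, 6.29 and 5.75. Their log2 fold changes were 0.92 and 0.91. Cenpe, a kinetochore motor, had 0.77 without overlap. Kif4, which acts on chromosomes and the central spindle, and Kif2c, a microtubule depolymerase, had 0.80 and 0.68, with 4NQO 3 slightly below control 3 in both. Kif23, the motor of the centralspindlin complex, had the smallest difference of the kinesins, 0.48 with an interval from -0.18 to 1.15. Its control values of 7.31, 8.02 and 8.42 enclosed both 4NQO 1 at 8.33 and 4NQO 3 at 8.15.

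The 5 spindle assembly genes had a median of 0.91, with 3 apart. Aurka, the kinase of spindle poles, read 6.18, 6.72 and 6.71 in control and 7.78, 7.35 and 7.40 in 4NQO tongues, a log2 fold change of 0.97 ± 0.21 (SE, adjusted p = 0.144 from limma). Its second, dimmer probe set had -0.011. Tpx2, which activates Aurora A, and Hmmr, a microtubule-binding protein, had 0.91 and 0.83 without overlap. Nusap1, which bundles spindle microtubules, had 0.98, but control 3 at 7.34 lay above 4NQO 3 at 7.26. Nek2, a kinase that separates centrosomes, had 0.72 with the same overlap, and its control signals were below the array medians, as for Aurkb.

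The 4 cytokinesis genes had a median of 0.83, with 3 apart. Anln, a scaffold of the contractile ring, read 6.73, 7.17 and 7.46 in control and 8.07, 8.63 and 7.75 in 4NQO tongues, a log2 fold change of 1.03. Prc1, which bundles midzone microtubules, had 0.87. Ect2, the activator of RHOA in the ring, had 0.80 from control signals below the array medians, and Racgap1, the centralspindlin subunit that recruits ECT2, had 0.70 with 4NQO 3 just under control 3. Of the 2 chromosome genes, Mki67, which encodes the proliferation marker Ki-67, read 7.66, 8.27 and 8.47 in control and 9.27, 9.37 and 8.82 in 4NQO tongues. Its log2 fold change was 1.02 ± 0.24 (SE, 2.03-fold, adjusted p = 0.194 from limma). Top2a, the topoisomerase that untangles sister chromatids, had 1.06 and no overlap.

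The mitotic genes were also ordered alike from tongue to tongue within each group. Control 1 was the lowest control in 41 of 43 genes and control 3 the highest in 38, while over all genes these tongues held those places in 36.5% and 40.5%. Among treated tongues, 4NQO 3 was the lowest in 39 genes and 4NQO 2 the highest in 34, against 26.7% and 30.4% over all genes. The median over the 43 genes of the log2 signal minus the control mean was -0.46, 0.042 and 0.37 in control 1, 2 and 3 and 1.02, 1.17 and 0.63 in 4NQO 1, 2 and 3. The step from control 1 to control 3, a median of 0.83, was larger than that from control 3 to 4NQO 3, a median of 0.28. In all 11 genes whose groups overlapped, 4NQO 3 lay within the control range, whereas 4NQO 1 did so in 2 and 4NQO 2 in 1. Without control 3, 41 of 43 genes had 4NQO apart above control, against 17.3% of all genes with the same 5 arrays, and without 4NQO 3 it was 41 against 14.1%. With fewer arrays groups separate more easily, so these counts are not to be set beside the 32.

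The spread within groups was wide. The median within-group SD of the 43 genes was 0.393 on the log2 scale, against 0.196 over all genes, and 42 of the 43 were above the latter. The 19 measured DNA replication genes, which act in the preceding S phase, had 0.88 as their median log2 fold change, with a median SD of 0.163, and 4 of them (Mcm5, Rrm2, Mcm3 and Tk1) passed limma's adjusted threshold. Their medians per tongue were 0.013, -0.032 and 0.071 in control and 0.92, 1.06 and 0.74 in 4NQO. Control 1 was the lowest control in 5 of the 19 genes. The difference in spread between both lists was not tested.

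**Figure D4:**
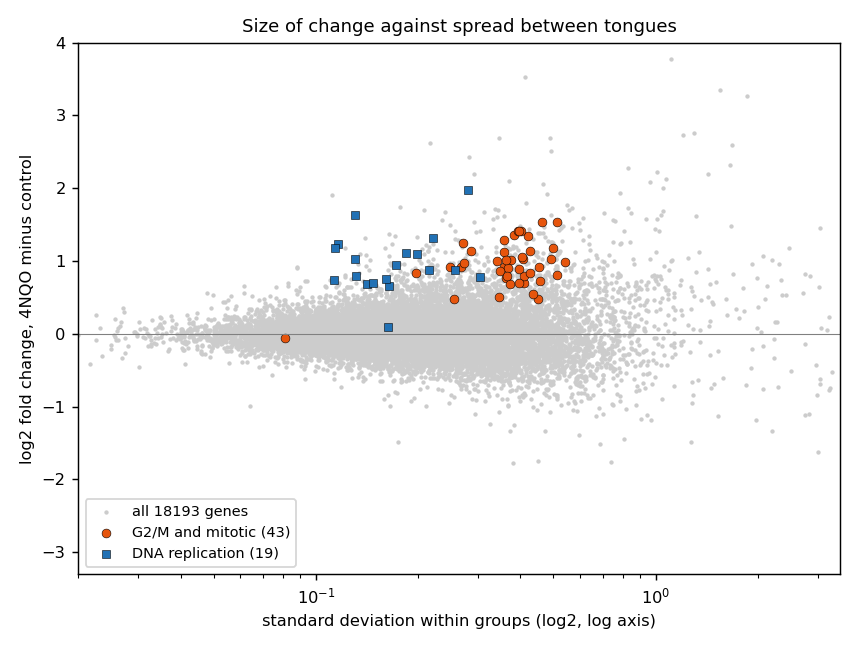
Log2 fold change (4NQO minus control) against the within-group SD of the log2 signal (log axis) for all 18193 genes (grey), 43 G2/M and mitotic genes (orange) and 19 DNA replication genes (blue). Both lists lie at similar fold changes, and the mitotic genes lie at a larger SD, with a median of 0.393 against 0.163.

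The Gapdh end difference was ordered across tongues as the mitotic genes were within each group, lowest in control 1 and highest in control 3, and lowest in 4NQO 3 and highest in 4NQO 2. In a fit with this difference as a covariate, its slope was positive in 42 of 43 mitotic genes, against 52.7% of all genes, with a median slope of 0.43 against 0.013. In that fit the median log2 fold change of the mitotic genes was 0.93, and 12 of them passed an adjusted p of 0.05, namely Bub1, Cdk1, Birc5, Aurkb, Pbk, Ube2c, Mad2l1, Spc25, Cenpa, Ttk, Ccna2 and Cks2. Over all genes 107 (0.588%) passed. The same difference between ends of the actin transcript (Actb) was 0.752, 0.830 and 1.01 in control 1, 2 and 3 and 1.12, 0.954 and 0.549 in 4NQO 1, 2 and 3. It was ordered as the mitotic genes in control, but in 4NQO tongues it was highest in 4NQO 1, and control 3 stood less far from the other arrays than for Gapdh. Without control 3 and 4NQO 2, the arrays of the largest Gapdh difference, the median was 1.00 and 0 of 43 passed, while 41 had 4NQO apart above control, against 23.1% of all genes in the same 2 against 2 tongues. The part of the end differences in the spread between tongues was not tested.

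Markers of cell types were set beside the mitotic genes. Of 7 basal keratinocyte markers, 0 had groups apart and 6 had a log2 fold change above 0. Krt14 alone was higher at an unadjusted p under 0.05 (log2 fold change 0.32). The remaining marker, Krt15, had a log2 fold change of -0.64 (unadjusted p = 0.058 from limma), the largest difference in size among the 7. The medians of the 7 basal markers relative to the control mean were -0.27, 0.20 and 0.13 in control and 0.50, 0.23 and -0.17 in 4NQO tongues. The median of the mitotic genes minus that of the basal markers was -0.18, -0.16 and 0.23 in control and 0.52, 0.94 and 0.79 in 4NQO. The 7 markers differed in direction, and this difference of medians does not measure the share of dividing cells. The summed signal of 9 measured leukocyte markers ranged from 9.80 to 10.6 on the log2 scale in control and from 10.04 to 10.8 in 4NQO. Of these 9, 7 had a log2 fold change above 0 (median 0.30). At an unadjusted p under 0.05 from limma, Ptprc (CD45, 1.12) and Cd3g (0.94) were higher and Cd79a (-0.59) was lower. In Cd79a alone the groups were apart, but all its signals except that of control 1 lay below the array medians. Suprabasal keratinocyte markers had a median log2 fold change of 0.42, with 6 of 7 above 0 and 0 apart. Relative to the control mean their medians were -0.0081, -0.31 and 0.36 in control and 0.39, 0.56 and 0.12 in 4NQO tongues, highest in control 3 and 4NQO 2 as for the mitotic genes. All 6 fibroblast markers had a log2 fold change below 0 (median -0.28), and 4NQO lay apart below control in Col1a2 (-0.50) and Dcn (-0.20). The sum of 8 muscle markers ranged from 15.6 to 16.0 in control and from 15.6 to 15.8 in 4NQO, and their medians were lowest in control 3 (-0.27) and 4NQO 2 (-0.34), the tongues in which the mitotic genes were highest within their group. Myh2, a fast myosin, read 5.43 and 5.01 there against 8.49 to 9.36 in the other tongues. The sum of 4 gland markers ranged from 5.55 to 11.8 and from 5.25 to 12.5, high in control 2 and 4NQO 3. The part of cell composition in the result was not tested.

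**Figure D5:**
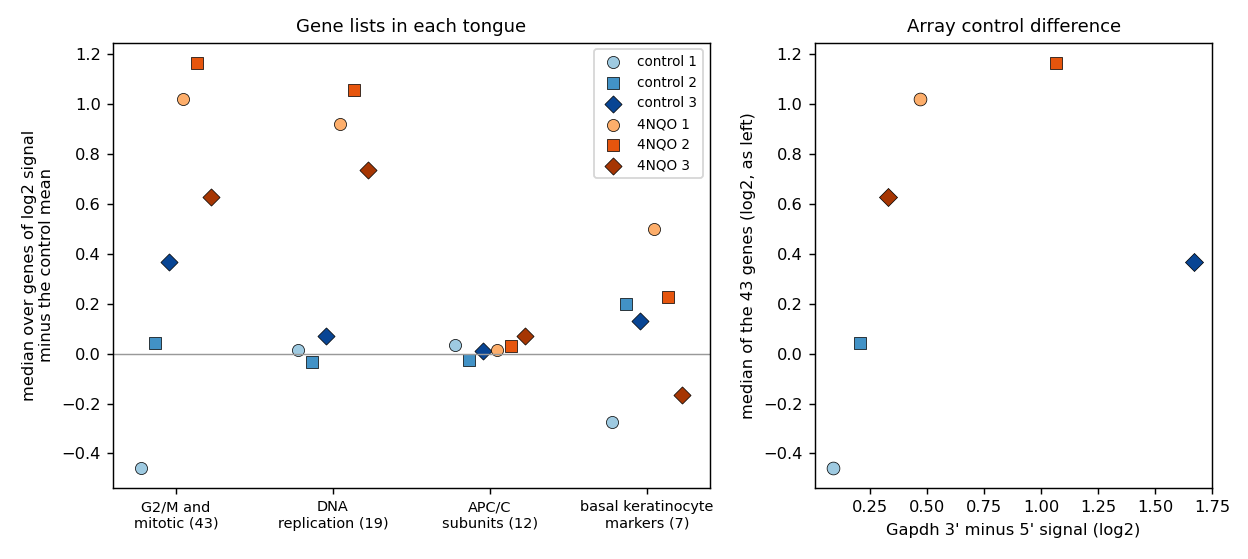
Left, median over genes of the log2 signal minus the control mean in each tongue for 43 G2/M and mitotic genes, 19 DNA replication genes, 12 core APC/C subunits and 7 basal keratinocyte markers. Right, the mitotic median against the Gapdh 3′ minus 5′ signal of each array. The mitotic medians run from -0.46 to 0.37 in control and from 0.63 to 1.17 in 4NQO tongues, and the core APC/C medians stay between -0.024 and 0.070.

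Beyond the members, 99 of 101 other genes of mitosis were measured, and their median was 0.44 on the log2 scale. By limma 0 of 99 passed the adjusted threshold. At an unadjusted p under 0.05, 51 were higher and 0 were lower, against 6.68% and 3.74% of all genes. In 54 genes 4NQO lay apart above control and in 2 below, against 9.59% and 7.18% of all genes. Genes of condensin and of cohesin release, which compact and free sister chromatids, had a median of 0.83 over 14 genes. Among them Smc2, a condensin core subunit, read 6.08, 6.14 and 6.59 in control and 7.95, 8.21 and 7.44 in 4NQO tongues (log2 fold change 1.60, adjusted p = 0.0615 from limma), and Ncapg and Cdca5 (sororin) had 1.51 and 1.46. Of 7 other cytokinesis genes, with a median of 0.81, Shcbp1, Depdc1b and Cep55 had 1.16, 0.87 and 1.39. Inner centromere genes had a median of 0.68 over 15, and the 3 of smallest p, Cenpm, Cenph and Cenpi, had 0.95, 0.76 and 1.20.

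Spindle pole genes had a median of 0.61 over 14, among them Psrc1, Plk4 (the kinase of centriole duplication) and Gtse1 with 0.82, 0.89 and 0.64. Other kinesins had a median of 0.54 over 7, with Kifc1, Kif18a and Kif18b at 1.24, 0.54 and 1.12. Genes that control CDK1 had 0.49 over 10, with Cks1b, Ccnf and Cdc25b at 1.43, 0.99 and 0.76. Outer kinetochore and checkpoint genes had 0.34 over 17, with Kntc1, Trip13 and Spc24 at 0.96, 0.79 and 0.86. The 12 core subunits of the APC/C, which most cells express throughout the cycle, had a median of 0.079, and 0 of 12 had an unadjusted p under 0.05 from limma. The core subunits with the smallest p, Cdc23 and Anapc5, had 0.32 and -0.26, and the APC/C inhibitor Fbxo5 (EMI1) had 0.81.

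Transcription regulators known to act on promoters of this kind were read beside them. Over 13 regulators the median log2 fold change was 0.17. Against 6.68% of all genes, 5 of the 13 regulators were higher at an unadjusted p under 0.05. These were E2f7 (1.19, adjusted p = 0.0886 from limma) and Rbl1 (0.98), which repress cell cycle genes, Tfdp1 (0.60), the partner of E2F factors, E2f1 (0.54) and Lin54 (0.59), the subunit that binds the CHR. Mybl2, the B-MYB activator of G2/M genes, had 0.22, and Lin9, Lin37, Lin52 and Rbbp4, the other subunits of the MuvB core, had 0.12, 0.11, -0.57 and 0.17. E2f4, E2f8 and Rbl2 had -0.044, 0.060 and -0.12. A second probe set of Rbl1 had -0.37.

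The mitotic genes were then split by their promoter letters. The median log2 fold change was 0.94 for 26 genes with the letters in their window, 0.98 for 9 measured genes without them and 0.91 for 8 genes with no window found. The last 8 include Ccna2, Aurkb and Pbk. Probe sets other than the one read per gene were also examined. Of 43 genes, 14 had 1 probe set and 29 had several, with 54 further probe sets in all. Of these dimmer probe sets, 41 were above 0, 17 had 4NQO apart above control and 0 below, and their median log2 fold change was 0.32. The lowest values belonged to probe sets of Top2a (-0.33), Nek2 (-0.30) and Cenpf (-0.29). The share of all dimmer probe sets on the arrays with groups apart is not given here.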

How the data were processed

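Total RNA of 3 control and 3 4NQO-treated tongues was hybridized to Affymetrix arrays. The deposited values are on a log2 scale, 1 signal per probe set, after normalization by the authors with R packages (method not given in the sources used here). The paper cites another deposited series for its arrays. The table held 45101 probe sets, of which 34945 had 1 gene in the platform annotation, 932 several genes and 9160 no gene, and 64 were array controls. Entrez IDs were matched to symbols in a RefSeq table of GRCm38.p6, which held 18032 of 18193 genes. Only probe sets of 1 gene were used, and per gene the one of highest mean. No filter on dim genes was applied.

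The groups were compared with limma 3.58.1 in R 4.3.3 (lmFit, eBayes with an intensity trend, two-sided), with Benjamini-Hochberg adjustment over all genes and a threshold of 0.05. The scripts were tested on simulated data. The study used SAM, which was run here with all 20 label permutations as an alternative. The other alternatives were quantile normalization, centring of arrays, a filter on dim genes, other probe sets, other models of the variance, a block for the replicate number, leaving out arrays, the Gapdh difference as a covariate, the methods' t-test and a threshold of 0.1. The members, lists, tests and alternatives were chosen with earlier results of these data known. Every member is named. Of the other lists, genes past the threshold or the 3 with the smallest p are named, and every regulator and marker may be named. Further probe sets were picked for mention after their values were seen. Some genes of the lists are not reported here. The number of arrays limits the precision. The labels do not say that replicate numbers pair tongues.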

Additional observations from a re-analysis of the deposited data

How the results depend on the processing

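The median log2 fold change of the mitotic genes stayed between 0.76 and 1.08 under 16 alternatives that refit the data, and moved by less than the spread between tongues in each. No mitotic gene passed the adjusted threshold in 16 of 19 alternatives. The exceptions were 12 genes with the Gapdh difference as a covariate, 1 by SAM and 2 at an adjusted p under 0.1. Genes at an unadjusted p under 0.05 numbered 25 by the methods' t-test (5.75% of all genes) and 28 to 41 with each tongue left out. For the fits with a tongue left out, the share of all genes at that p is not given here, so the 28 to 41 have no background beside them. The groups were apart, with 4NQO higher, for 32 to 41 genes with each tongue left out (12.6% to 17.3% of all genes), for 25 of 33 measured genes without dim genes (12% of all genes) and for 26 with the second brightest probe set (8.45%). Over all genes, the number past the threshold was 65 with centred arrays, 13 without dim genes, 10 with the second brightest probe set, 47 with a robust trend, 4 without both arrays of the largest Gapdh difference, 107 with the Gapdh covariate, 83 by SAM (0 of them lower), 2 by the methods' t-test after adjustment and 111 at a threshold of 0.1, and it ranged from 0 (without control 2) to 27 (without 4NQO 3) with each tongue left out. With the second brightest probe set, the log2 fold change was -0.071 for Ttk, -0.29 for Cenpf, -0.011 for Aurka, -0.057 for Cdc23 and -0.37 for Rbl1. With centred arrays it was 0.016 for Pttg1. None of these was past the threshold before, and the cause was not tested.

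With the replicate number as a block, 2 genes of all passed the threshold, 0 of 43 mitotic genes did, and 36 of them had an unadjusted p under 0.05. The share of all genes at that p in the block fit is not given here. The deviations of same-numbered tongues correlated at 0.29, -0.51 and 0.05. Deviations from a mean of 3 tongues are tied to each other, so these values cannot show whether the numbers pair tongues. With 3 arrays per group and signals of Aurkb, Nek2 and Ect2 below the array medians in control, small changes and the size of changes of dim genes cannot be resolved. The same limit holds for Kif18a, Cenph, Cd3g and Lin9, whose control signals were also below the array medians. It holds as well for Cd79a, which stood above the array median in control 1 only.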
